A study of Rattus norvegicus with 12 samples.

Results

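*Ppargc1a*, *Pdk4*, *Ppara* and *Cpt1b* are 4 of the 15920 genes whose RNA was counted in neonatal rat ventricular myocytes (NRVM) exposed to phenylephrine (PE), the CDK7/12/13 inhibitor THZ1, or both. The genes were chosen by their Ensembl identifiers (ENSRNOG00000004473, ENSRNOG00000009565, ENSRNOG00000021463 and ENSRNOG00000010438, in that order), and all 4 identifiers were found in the table. The table lists identifiers without symbols, so the pairing of identifier and symbol was taken as given and was not checked here. The cells came from Sprague Dawley pups 2 to 3 days after birth, were cleared of other cells by pre-plating and BrdU, and were kept without serum before treatment. There were 4 groups of 3 libraries. Baseline cells received vehicle, the second group received THZ1 alone at 10 nM, the third received PE at 100 µM, and the fourth received PE at 100 µM with THZ1 at 10 nM. Treatment lasted 48 h according to the labels, and the methods also state 48 h of PE for RNA measurements. In the methods, inhibitor or vehicle was given before PE was added. In the table, however, the 6 columns of PE-treated libraries are named with 24 h. Nothing in the labels says that the 3 libraries of a group come from separate cell preparations, so p-values measure the spread between these libraries, which may be technical.

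The heart draws most of its energy from long-chain fatty acids, and the capacity to burn them rises after birth. *Ppargc1a* encodes PGC-1α, a transcriptional coactivator that drives mitochondrial biogenesis and oxidative metabolism and works with nuclear receptors. *Ppara* encodes PPARα, the fatty acid-activated nuclear receptor that turns on many genes of fatty acid use in heart and liver. *Cpt1b* encodes the muscle form of carnitine palmitoyltransferase 1, the enzyme that commits long-chain fatty acids to entry into mitochondria. *Pdk4* encodes a kinase that switches off the pyruvate dehydrogenase complex and so spares glucose while fatty acids are burned. *Pdk4* and *Cpt1b* are both well-known targets of PPARα, and a lean away from fatty acids is a known feature of hypertrophied heart muscle.

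The stretch upstream of the start site is shown for *Ppargc1a* and *Pdk4*, the coactivator and the kinase, because the first fell furthest of the 4 with PE and the second rose furthest with THZ1. Each run is the 250 bases before the start in the RefSeq table of build GRCr8, written 5′ to 3′ along the gene. The counts themselves were made on build rn5. Capitals in *Ppargc1a* mark the cAMP response element TGACGTCA. Capitals in *Pdk4* mark a CCAAT box, which reads ATTGG on this strand, and a GC box (GGGCGG).
Ppargc1a, chr14:63634058-63634307, plus strand: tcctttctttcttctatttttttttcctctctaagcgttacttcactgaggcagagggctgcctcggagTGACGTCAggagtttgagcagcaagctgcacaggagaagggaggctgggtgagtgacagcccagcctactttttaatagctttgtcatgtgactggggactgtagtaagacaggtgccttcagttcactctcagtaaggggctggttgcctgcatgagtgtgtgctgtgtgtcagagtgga
Pdk4, chr4:34568330-34568579, minus strand: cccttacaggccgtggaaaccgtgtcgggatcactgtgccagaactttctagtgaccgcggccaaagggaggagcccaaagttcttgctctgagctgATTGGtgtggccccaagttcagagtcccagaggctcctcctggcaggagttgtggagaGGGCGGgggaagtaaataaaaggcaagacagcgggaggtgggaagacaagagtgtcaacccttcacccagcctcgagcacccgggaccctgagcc
TGACGTCA began at position -181 from the start of *Ppargc1a* and was found on either strand in 1.59% of 33469 promoters of the same length. CCAAT was found in 34.0% and GGGCGG in 30.5% of them. These 3 motifs were chosen after the sequences were seen, and GGGCGG lies inside no other motif marked here. The promoter of *Ppara* was also listed and held 2 GC boxes, with a G and C content of 76.0%, against 50.4% in *Ppargc1a* and 59.2% in *Pdk4*. The median over all promoters was 51.2%. No entry was used for *Cpt1b*. None of 5 other motifs searched on both strands was found in the 3 windows, namely the DR1 element to which PPARα binds, its core AGGTCA, the ERR element TNAAGGTCA, the FOXO element TGTTTAC and the E-box CACGTG. These were found in 0.0508%, 14.1%, 1.04%, 3.21% and 5.59% of all promoters. The core is part of the DR1 and ERR elements, so their counts overlap, and a missing match says only that these letters are not in this window.

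Values are read counts per gene divided by a size factor of the library, called normalized counts below. Because 1 read has a fixed worth in each library, the reads themselves could be worked out, and 100% of them were whole numbers to within 0.01. These totals ran from 30458862 to 45885754 reads per library. Baseline replicate 2 stood apart. The scatter of its reads across genes around those of the other baseline libraries was 48.3 and 51.9 times that of counting error, against 1.99 to 8.09 times for all other pairs within a group. Log2 changes against baseline and interactions are given with and without it. Summed over all genes, normalized counts with THZ1 alone were 90.02% ± 1.24 of the baseline mean (SD, n = 3, against 5.05 at baseline), those with PE were 106.3% ± 0.345 and those with PE + THZ1 were 88.9% ± 1.55. Scaling all libraries to equal totals is thus a different measure, under which the median log2 change of all genes moved from 0.010 to 0.265 for PE + THZ1 against PE. The labelled cell type was not checked against marker genes, since the identifiers carry no symbols here. In bulk RNA, fewer cells of a type and less RNA per cell cannot be told apart.

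All 4 genes had their lowest mean with PE and their highest mean with THZ1 alone. *Pdk4* and *Cpt1b* rose strongly with THZ1 whether or not PE was present, and both stayed above baseline in co-treated cells. *Ppargc1a* showed the deepest fall with PE and *Cpt1b* the smallest. *Ppara* fell to 83.5% of its baseline mean with PE and had the smallest changes of the 4 with THZ1, with or without PE. *Ppargc1a* had between 817 and 2016 reads in a library, *Pdk4* 719 to 2795, *Cpt1b* 2124 to 6336 and *Ppara* 314 to 618. Counting error alone is therefore 1.26% to 2.17% of the value for *Cpt1b* and 4.02% to 5.64% for *Ppara*, where it is largest. Libraries could differ by more than that, with a baseline SD of 12.7% of the mean for *Ppargc1a* and 10.4% for *Ppara*.

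**Figure D1:**
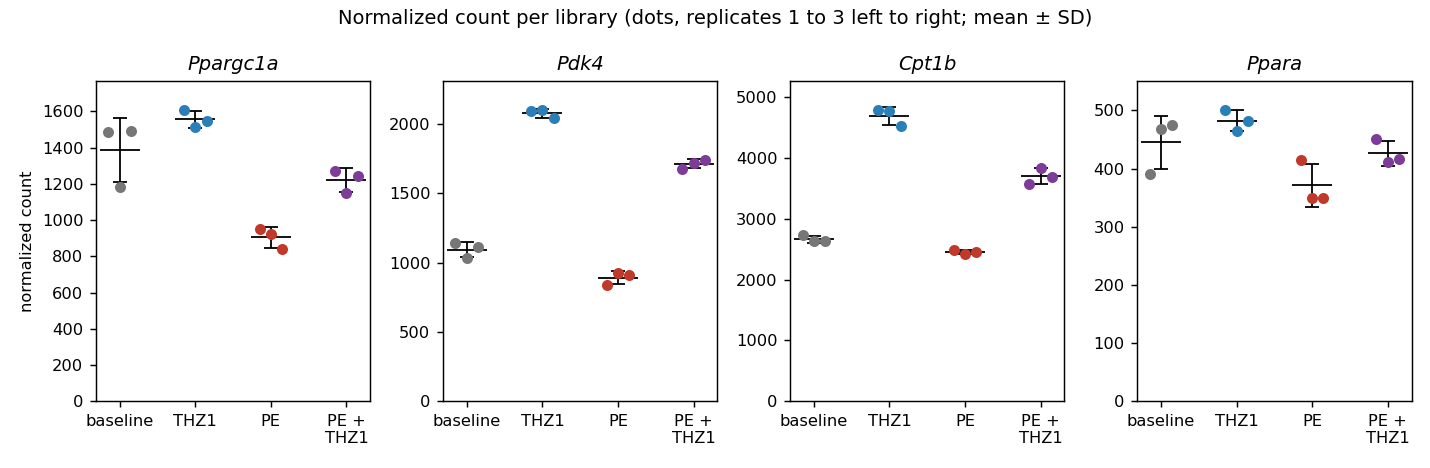
Normalized count (vertical axes, from 0) of *Ppargc1a*, *Pdk4*, *Cpt1b* and *Ppara* in each of the 12 libraries by group, with dots for replicates 1 to 3 and bars for the mean ± SD. *Pdk4* lies between 2042 and 2100.1 with THZ1 alone and at 1142 or lower in every baseline library, whereas the baseline and THZ1 values of *Ppara* overlap.

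The first question was what PE did to this set. In the coactivator gene *Ppargc1a*, the baseline libraries had 1486, 1185 and 1492 normalized counts and the PE libraries 953, 923 and 841. All PE libraries lay below all baseline libraries, including the low baseline replicate 2. The mean fell from 1388 ± 176 (SD, n = 3) to 906 ± 58.2, which is 65.3% of baseline. The log2 change was -0.61 (standard error, SE, 0.08, adjusted p = 3.07e-06 from limma), and without baseline replicate 2 it was -0.72. Only 9.16% of the genes tested had a lower value in this comparison.

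The kinase gene *Pdk4* had 1142, 1032 and 1110.5 normalized counts at baseline and 839, 929 and 909 with PE. These groups did not overlap either, and the fall was smaller than that of *Ppargc1a*. Its mean went from 1095 ± 56.8 to 892 ± 47.2 (SD, n = 3), a log2 change of -0.29 (SE 0.05, adjusted p = 0.000125 from limma). Without baseline replicate 2 the change was -0.34.

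*Cpt1b*, the gene of the mitochondrial entry enzyme, had 2724, 2630.3 and 2627 normalized counts at baseline and 2478, 2425 and 2451 with PE. The groups did not overlap, but the step was small, to 92.1% of the baseline mean. Its log2 change was -0.12 (SE 0.04, adjusted p = 0.0240 from limma). The call was lost in limma without baseline replicate 1 (adjusted p = 0.0787), without PE replicate 2 (adjusted p = 0.0710) and without PE replicate 3 (adjusted p = 0.0580). With only the baseline and PE libraries in the fit the adjusted p from limma was 0.0758, and with equal library totals the log2 change was -0.21. Without baseline replicate 2 it was -0.13.

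For *Ppara*, the receptor gene, the baseline values were 391, 467 and 475 normalized counts and the PE values 414, 350.05 and 349.9. PE replicate 1 lay above baseline replicate 1, so the groups overlapped. The means were 445 ± 46.3 and 371 ± 37.1 (SD, n = 3), with a log2 change of -0.26 (SE 0.09, adjusted p = 0.0171 from limma). This call too rested on single libraries. It was lost in limma without baseline replicate 3 (adjusted p = 0.0798), PE replicate 2 (adjusted p = 0.0744) or PE replicate 3 (adjusted p = 0.0757), and with only the 2 groups in the fit (adjusted p = 0.0531). Without baseline replicate 2 the log2 change was -0.22.

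In all, 4 of the 4 genes passed the threshold of 0.05 on the lower side, where 24.0% of the 15222 genes tested were called lower and 52.4% were called in either direction. With 3 of the 4 the groups did not overlap, against 25.4% of all genes whose PE libraries all lay below baseline. Of all calls 54.3% were higher with PE, and 37.4% were with equal library totals. The 4 falls were called under that scaling as well, and it moved the median change of all genes from 0.015 to -0.074.

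The second question was whether THZ1 changed these genes in PE-treated cells. *Pdk4* had 1679, 1719.9 and 1744 normalized counts with PE + THZ1, where the highest PE library had 929. The co-treated libraries thus lay far above every PE library and above every baseline library. The mean of 1714 ± 32.8 (SD, n = 3) was 156.6% of baseline. Against PE the log2 change was 0.94 (SE 0.05, adjusted p = 3.98e-11 from limma), a fold of 1.92 with a 95% interval of 1.78 to 2.07. Only 4.36% of the genes tested had a higher value.

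The co-treated values of *Cpt1b* were 3574, 3829 and 3683 normalized counts, all above the highest PE value of 2478 and the highest baseline value of 2724. The mean was 3695 ± 128 (SD, n = 3) and the fold over PE was 1.51 (95% interval 1.42 to 1.60). The log2 change was 0.59 (SE 0.04, adjusted p = 9.66e-10 from limma).

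*Ppargc1a* had 1273, 1148 and 1246 normalized counts with PE + THZ1. All 3 exceeded the PE libraries, and they lay around the low baseline library and below the other two. The mean was 1222 ± 65.6 (SD, n = 3), which is 88.1% of baseline, and the log2 change against PE was 0.43 (SE 0.08, adjusted p = 9.44e-05 from limma). With equal library totals the change was 0.69.

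*Ppara* had 451, 411 and 417 normalized counts with PE + THZ1, of which the lowest was below the highest PE library. Its log2 change against PE was 0.20 (95% interval 0.02 to 0.38) and missed the threshold (adjusted p = 0.0514 from limma). Without PE replicate 1 it was 0.28 (adjusted p = 0.0118 from limma). It was also past the threshold in limma without each of baseline replicates 1, 2 and 3 (adjusted p = 0.0285, 0.0332 and 0.0478), which enter this comparison only through the shared spread. In limma it was past it under equal totals (adjusted p = 0.000325), TMM (0.0374) and quantile (0.0123) scaling as well. It missed the threshold with DESeq2 (adjusted p = 0.0662). In limma it also missed it without a trend in the prior variance (adjusted p = 0.0788), with a replicate block (0.0573) and without a filter on low values (0.0538). For *Ppara* the call thus cannot be settled here.

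THZ1 thus raised 3 of the 4 genes in PE-treated cells, against 29.1% of genes called higher and 58.7% called in either direction in that comparison. The same 3 had groups without overlap, against 33.2% of all genes on the higher side. Of all calls 49.6% were higher, and 77.4% were with equal library totals. Under equal totals *Pdk4* rose by 1.20 and *Cpt1b* by 0.85, both above the median shift of 0.265.

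The share of the PE change that co-treatment reversed was computed on the log2 scale, where 0 is the PE level and 1 is the baseline level. It was 0.711 ± 0.129 for *Ppargc1a* and 0.781 ± 0.279 for *Ppara* (SD over the 3 co-treated libraries). Both therefore ended between the PE and the baseline mean. For *Pdk4* it was 3.20 ± 0.0937 and for *Cpt1b* 5.02 ± 0.423, which are past baseline. These SDs leave out the spread of the PE and baseline libraries. With single libraries left out, the share ran from 0.602 to 0.784 for *Ppargc1a*, from 0.581 to 0.971 for *Ppara* and from 2.80 to 3.58 for *Pdk4*. The value of *Cpt1b* divides by a small PE change and ran from 4.66 to 5.87. With equal totals the shares of *Ppargc1a* and *Ppara* were 0.989 and 1.32.

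The third question was what THZ1 did without PE. With THZ1 alone, *Pdk4* had 2096, 2100.1 and 2042 normalized counts, and the 3 libraries lay close together. Their mean of 2079 ± 32.5 (SD, n = 3) was 189.9% of baseline. The log2 change was 0.93 (SE 0.05, adjusted p = 1.51e-10 from limma), which placed it 257th from the highest of 15222 genes. It was 0.88 without baseline replicate 2.

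*Cpt1b* had 4779.6, 4761 and 4514 normalized counts with THZ1 alone, against at most 2724 at baseline. The mean of 4685 ± 148 (SD, n = 3) was 176.1% of baseline. The log2 change was 0.82 (SE 0.04, adjusted p = 4.58e-11 from limma), which placed it 374th. Leaving out baseline replicate 2 gave 0.81. The kinase and the entry enzyme therefore stood close together near the upper end of all genes.

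*Ppargc1a* did not follow them. Its values with THZ1 alone were 1607, 1515 and 1548 normalized counts, just above the highest baseline library (1492), with a log2 change of 0.17 (95% interval 0.01 to 0.33, adjusted p = 0.0698 from limma). The call turned with single baseline libraries in limma. It passed without baseline replicate 1 (log2 change 0.23, adjusted p = 0.0324) and without replicate 3 (0.23, adjusted p = 0.0312), and the change was 0.064 without replicate 2. Equal totals gave 0.32 (adjusted p = 0.000507 from limma). *Ppara* had 500.3, 464 and 481 normalized counts, which overlapped baseline, with a log2 change of 0.12 (95% interval -0.06 to 0.30, adjusted p = 0.262 from limma). The change was 0.031 without baseline replicate 1, 0.16 without replicate 2 and 0.17 without replicate 3. Equal totals gave 0.27 (adjusted p = 0.0209 from limma).

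THZ1 alone thus raised 2 of the 4 genes, where 24.4% of all genes were called higher and 49.1% in either direction. Groups did not overlap for 3 of them, *Ppargc1a* included, against 26.5% of all genes on the higher side. Of all calls 49.7% were higher, and 72.5% were with equal totals. That scaling moved the median change of all genes to 0.149.

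**Figure D2:**
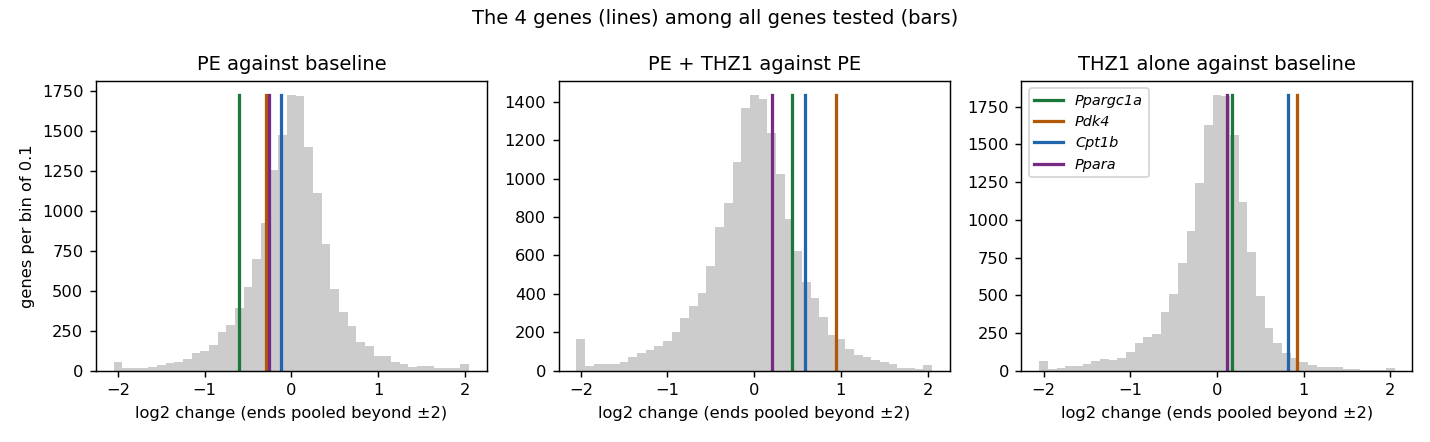
Number of genes per 0.1 of log2 change (bars, all 15222 genes tested) with the change of *Ppargc1a*, *Pdk4*, *Cpt1b* and *Ppara* as vertical lines, for PE against baseline, PE + THZ1 against PE, and THZ1 alone against baseline. *Pdk4* (0.93) and *Cpt1b* (0.82) stand in the upper tail with THZ1 alone, while *Ppargc1a* (0.17) and *Ppara* (0.12) stand within the bulk.

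The co-treated cells were also set beside baseline and beside THZ1 alone. Against baseline, *Pdk4* was 1.57-fold higher (log2 change 0.65, SE 0.05, adjusted p = 1.49e-08 from limma) and *Cpt1b* 1.39-fold higher (0.47, SE 0.04, adjusted p = 4.56e-08 from limma). These were 2 of 4 genes, against 25.3% of all genes called higher and 51.2% in either direction. For both the groups did not overlap, against 27.4% of all genes on that side. For *Ppargc1a* the log2 change was -0.18 (95% interval -0.34 to -0.01) and missed the threshold (adjusted p = 0.0640 from limma). Without baseline replicate 2 it was -0.29 and passed it (adjusted p = 0.000257 from limma), and with equal totals it was -0.0075. *Ppara* differed by -0.06 (95% interval -0.24 to 0.12, adjusted p = 0.608 from limma), and the sign turned with equal totals (0.11). The difference was -0.15 without baseline replicate 1, -0.018 without replicate 2 and -0.0059 without replicate 3. For *Pdk4* and *Cpt1b* the changes without baseline replicate 2 were 0.61 and 0.47. Of all calls 49.4% were higher, and 74.3% were with equal totals.

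Against THZ1 alone, adding PE lowered 3 of the 4 genes, where 10.8% of all genes were called lower and 22.6% in either direction. *Ppargc1a* fell by 0.35 on the log2 scale (SE 0.08, adjusted p = 0.00282 from limma). *Cpt1b* changed by -0.34 (SE 0.04, adjusted p = 1.02e-05 from limma) and *Pdk4* by -0.28 (SE 0.05, adjusted p = 0.000756 from limma). The libraries of the 2 groups did not overlap for any of these. Nor did they for *Ppara*, whose change of -0.18 (95% interval -0.36 to 0.003) missed the threshold (adjusted p = 0.159 from limma). Groups without overlap on the lower side made up 22.2% of all genes.

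Whether THZ1 acted differently with and without PE was tested by the interaction term. It was called for 1 of the 4 genes, against 29.9% of all genes in either direction and 16.9% on the negative side. The interaction of *Cpt1b* was -0.22 on the log2 scale (SE 0.06, adjusted p = 0.00780 from limma), so its rise with THZ1 was smaller in PE-treated cells. Put the other way, it fell by 0.12 with PE in the absence of THZ1 and by 0.34 in its presence. With equal totals the interaction was -0.12 (adjusted p = 0.230 from limma), beside a median of 0.093 over all genes, and the call was lost. Of all calls 43.4% were positive, and 73.3% were with equal totals.

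*Ppargc1a* had an interaction of 0.26 (95% interval 0.03 to 0.49, adjusted p = 0.0796 from limma), and without baseline replicate 2 it was 0.37 (adjusted p = 0.000671 from limma). *Pdk4* had 0.02 (95% interval -0.14 to 0.17, adjusted p = 0.890 from limma), and 0.059 without baseline replicate 2. That of *Cpt1b* was -0.22 without the same library. *Ppara* had 0.08, and its 95% interval of -0.17 to 0.34 is wide against the size of its changes. It was 0.17 without baseline replicate 1, 0.043 without replicate 2 and 0.031 without replicate 3.

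**Figure D3:**
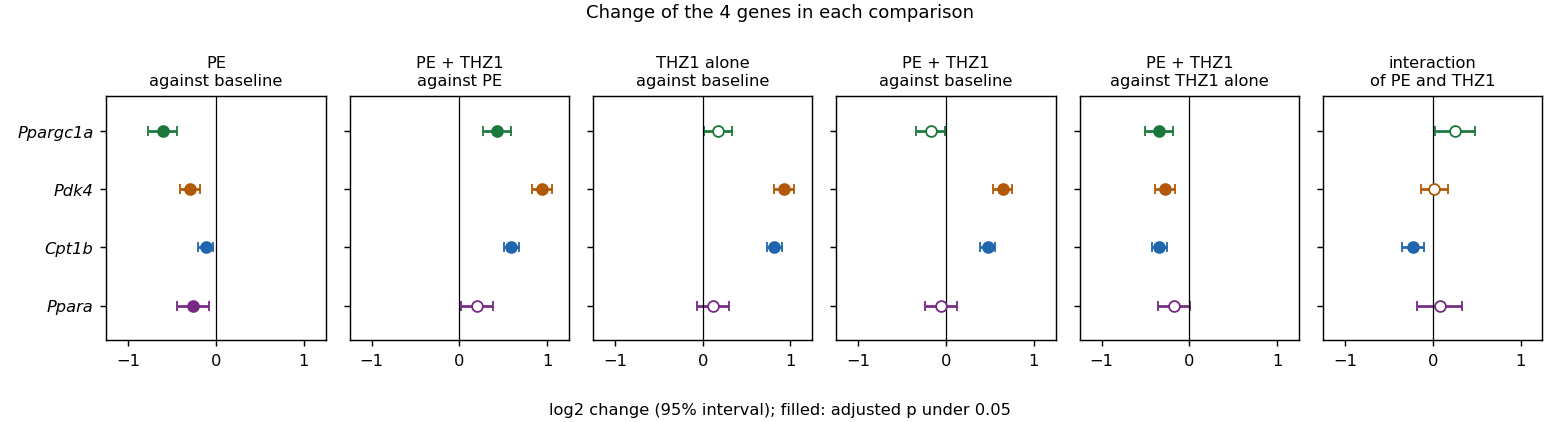
Log2 change (horizontal axes, with 95% intervals) of *Ppargc1a*, *Pdk4*, *Cpt1b* and *Ppara* in the 5 comparisons and the interaction, with filled dots for an adjusted p under 0.05. All 4 dots are filled and left of 0 for PE against baseline, and only *Pdk4* and *Cpt1b* are filled for THZ1 alone against baseline.

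In order of level, THZ1 alone, PE + THZ1, baseline and PE followed each other for *Pdk4* and *Cpt1b*. Every neighbour in this order differed past the threshold for these 2 genes, with the last step of *Cpt1b* as the weak one. For *Ppargc1a* and *Ppara* the order was THZ1 alone, baseline, PE + THZ1 and PE. The first 3 groups of *Ppargc1a* were not told apart from their neighbours, and only the step from PE + THZ1 to PE passed the test. In *Ppara* no pair of neighbours differed past the threshold.

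How far the genes moved apart from each other was read from their ratio within each library, which a single scaling factor per library cannot change. These ratios were chosen after the values were seen, 30 differences of ratios were tested, and 3 libraries against 3 cannot go below p = 0.1 in an exact permutation test. Reads of *Pdk4* per read of *Ppargc1a* were 0.768, 0.871 and 0.745 in the baseline libraries, and 1.30, 1.39 and 1.32 with THZ1 alone. With PE they were 0.880, 1.01 and 1.08, and with PE + THZ1 1.32, 1.50 and 1.40. Every treated library lay above every baseline library. The ratio was 1.69-fold higher with THZ1 alone than at baseline and 1.42-fold higher with PE + THZ1 than with PE (exact permutation test, two-sided, p = 0.1 for each, adjusted p = 0.143). With PE alone the ratio was 1.24-fold that of baseline (exact permutation p = 0.1, adjusted p = 0.143).

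The ratio of *Cpt1b* to *Ppargc1a* was 1.94 ± 0.247 at baseline (SD, n = 3), 3.01 ± 0.118 with THZ1 alone, 2.71 ± 0.175 with PE and 3.03 ± 0.272 with PE + THZ1. The 3 treated groups lay above baseline in every library, while PE and PE + THZ1 overlapped. Reads of *Pdk4* per read of *Cpt1b* changed over a narrower range. Their ratio was 0.411 ± 0.0167 at baseline, 0.444 ± 0.00736 with THZ1 alone, 0.364 ± 0.0230 with PE and 0.464 ± 0.0132 with PE + THZ1. From PE to PE + THZ1 this is a 1.28-fold difference with no overlap (exact permutation p = 0.1, adjusted p = 0.143). The ratio of *Ppara* to *Ppargc1a* was 0.326 ± 0.0658 at baseline and 0.310 ± 0.00263 with THZ1 alone, and these groups overlapped (exact permutation p = 0.7). Reads of *Pdk4* per read of *Ppara* were 2.49 ± 0.378 at baseline and 4.32 ± 0.179 with THZ1 alone, a 1.75-fold difference. With PE they were 2.43 ± 0.348, which overlapped baseline, and with PE + THZ1 4.03 ± 0.266. The kinase gene thus moved away from the receptor gene with THZ1 in every library and not with PE alone. So did *Cpt1b*, whose ratio to *Ppara* was 1.62-fold that of baseline with THZ1 alone and 1.31-fold that of PE with PE + THZ1, without overlap. With PE alone that ratio overlapped baseline. From THZ1 alone to PE + THZ1, *Pdk4* to *Ppara* changed 0.932-fold and *Cpt1b* to *Ppara* 0.892-fold (exact permutation p = 0.1, adjusted p = 0.143 for each). The groups did not overlap, but only by a narrow gap. The lowest ratios with THZ1 alone were 4.189 and 9.38, and the highest with PE + THZ1 were 4.187 and 9.32.

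**Figure D4:**
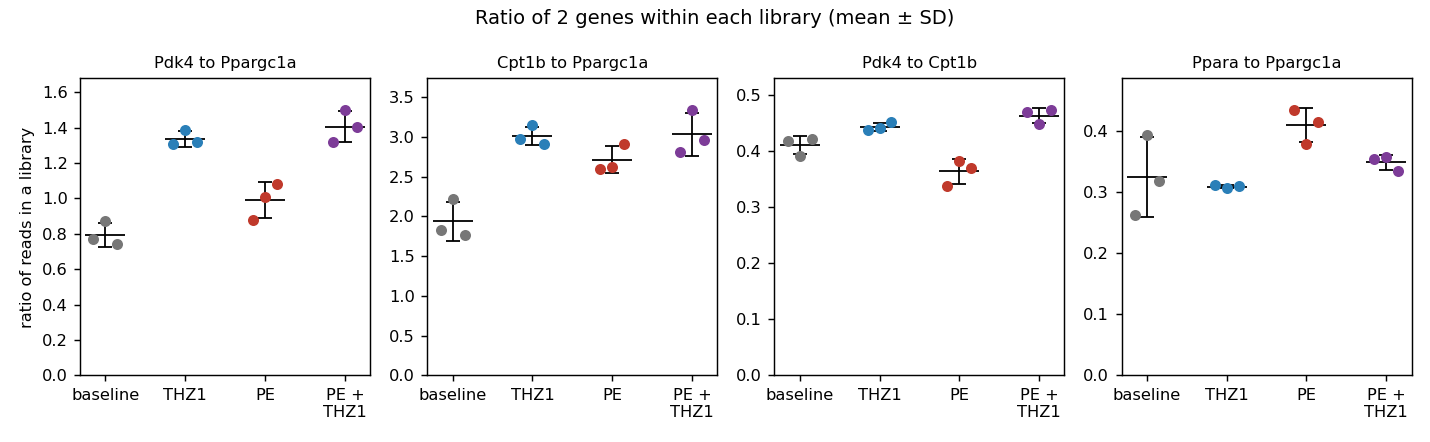
Reads of a gene divided by reads of another gene in the same library (vertical axes, from 0) for 4 gene pairs by group, with dots for the libraries and bars for the mean ± SD. *Pdk4* to *Ppargc1a* lies between 0.745 and 0.871 at baseline and between 1.30 and 1.39 with THZ1 alone.

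Likeness of pattern was measured over the 12 libraries as the root mean square difference of log2 values, each gene centred on its own mean, among genes whose normalized counts averaged 100 or more. Since the libraries fall into the 4 groups, a small difference mostly says that the group means run alike. Between *Pdk4* and *Cpt1b* it was 0.142. Of 11163 genes compared with *Pdk4*, *Cpt1b* ranked 24th in closeness, and *Pdk4* ranked 89th among those compared with *Cpt1b*. *Ppara* was 0.201 from *Ppargc1a*, at rank 927 among genes compared with *Ppargc1a*. Among genes compared with *Ppara*, *Ppargc1a* was only at rank 3706. That distance exceeds the SD of the log2 values of *Ppara* over the libraries (0.165, against 0.306 for *Ppargc1a*). The measure also counts a difference in the size of the changes. The 2 genes had the same order of groups, so a large distance here does not mean that their patterns were unlike. *Pdk4* was 0.347 from *Ppargc1a*, at rank 5492 among genes compared with *Ppargc1a*. Among genes compared with *Pdk4*, *Ppargc1a* was at rank 1329. The gene nearest to *Ppargc1a* was ENSRNOG00000001249 (0.0721), whose mean was 19760.4 ± 1114 normalized counts at baseline (SD, n = 3) and 12159 ± 250 with PE. The gene nearest to *Pdk4* was ENSRNOG00000017309 (0.0728), with 2739 ± 107 at baseline and 4643 ± 142 with THZ1 alone. For both identifiers no symbol is paired here. The nearest genes of *Cpt1b* and *Ppara* were at 0.0544 and 0.0678. In an unnamed column taken here as the authors' clusters, *Ppargc1a*, *Pdk4* and *Cpt1b* shared number 1, held by 5024 genes (31.6% of the table). *Ppara* had number 5, held by 2263 genes (14.2%). In the paper, cluster 5 holds genes raised by PE and lowered by THZ1, whereas *Ppara* had its lowest mean with PE. Whether the numbers in this column are those of the paper's clusters was not tested, so *Ppara* was not placed in that cluster.

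Of the 3 other library scalings, TMM and quantile scaling stayed nearer to the deposited one than equal totals did. Equal totals multiply all genes of a library by the same factor, so each gene moved with the median of all genes by construction.

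**Figure D5:**
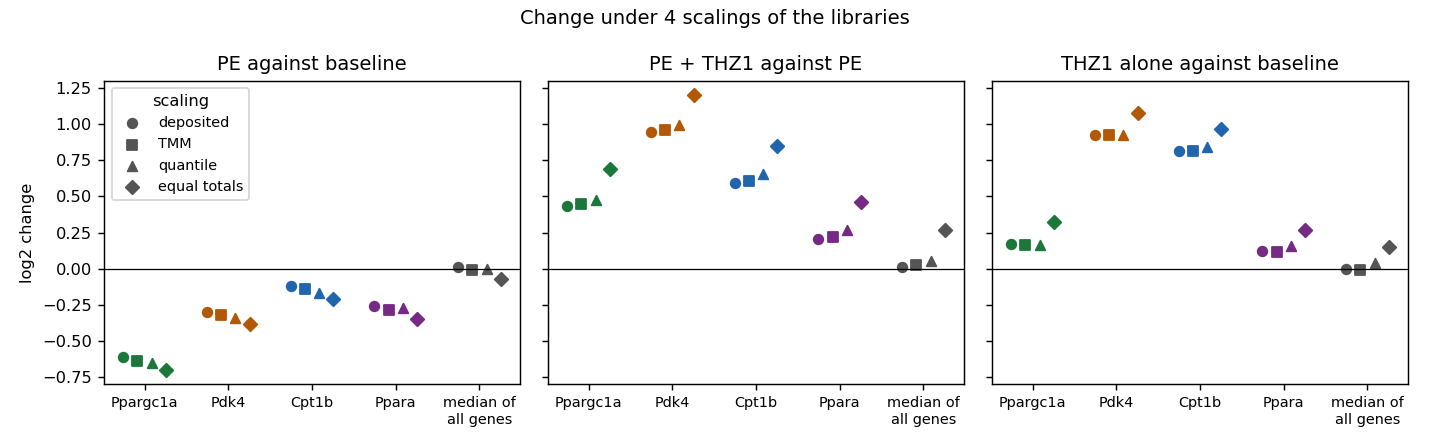
Log2 change (vertical axis) of *Ppargc1a*, *Pdk4*, *Cpt1b* and *Ppara* and the median of all genes under 4 scalings of the libraries (symbols), for 3 comparisons. Equal totals lie apart from the other three, for example at 1.20 against 0.94 for *Pdk4* in PE + THZ1 against PE, where the median of all genes is 0.265.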

How the data were processed

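RNA-seq libraries of NRVM were analysed from a single table of 12 columns, assigned to groups and replicates by the sample titles. Per the methods and the labels, the authors aligned single-end reads to rn5 with TopHat2 2.1.1, ran htseq-count in its reverse-strand mode, and scaled the result with DESeq2. What they deposited is a signal of 0 or more, the read count of a gene over the library's size factor. An unnamed column of whole numbers was taken as the authors' cluster of each gene. The 15222 genes averaging 5 or more were tested on log2(normalized count + 1) with limma 3.58.1, run in R 4.3.3. A single fit held all 12 libraries, with a prior variance that follows expression, two-sided tests, Benjamini-Hochberg adjustment over all genes and a threshold of 0.05. Log2 changes on this scale slightly understate those of low genes. As alternatives, edgeR 4.0.16 and DESeq2 1.42.0 were run on the recovered reads, along with other pseudocounts, filters, scalings, a replicate block and the omission of each library. The genes named were the 4 members and those with the most similar pattern. The members, lists and tests were chosen with earlier results of these data known. Pathway and marker lists set by symbol could not be applied, as 0 of the identifiers were matched among 47357 RefSeq entries, and no list result is given. Replicate numbers were not taken to pair libraries. Figures were drawn with matplotlib 3.10.9 in Python 3.11.15.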

Additional observations from a re-analysis of the deposited data

Results flagged for a closer look

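The effect of THZ1 on *Cpt1b* differed between cells with and without PE, with an interaction of -0.22 on the log2 scale (standard error 0.06, adjusted p = 0.00780 from limma). THZ1 raised it by 0.82 without PE and by 0.59 with PE, and the libraries of the groups did not overlap in either case. With equal library totals the interaction was -0.12 and missed the threshold.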

How the results depend on the processing

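The calls of *Pdk4* in all 5 comparisons, of *Cpt1b* in all but PE against baseline, and of *Ppargc1a* for PE against baseline, PE + THZ1 against PE and PE + THZ1 against THZ1 alone held under every alternative run. Equal library totals gave *Ppara* a log2 change of 0.46 for PE + THZ1 against PE, 0.27 for THZ1 alone and 0.11 for PE + THZ1 against baseline (sign turned), *Ppargc1a* 0.32 for THZ1 alone and an interaction of 0.37, and *Cpt1b* an interaction of -0.12. They gave shares reversed of 0.989 (*Ppargc1a*), 1.32 (*Ppara*) and 4.09 (*Cpt1b*). For *Ppara* in PE + THZ1 against PE, values past the threshold were 0.20 with a minimum mean of 50, 0.22 with TMM, 0.27 with quantile scaling, 0.22 with edgeR and 0.20 with only the groups compared. The same change was 0.20 and missed it with DESeq2, the other pseudocounts, no filter on low values, no trend in the prior variance and the replicate block. For *Ppargc1a* the interaction passed with quantile scaling (0.31) and edgeR (0.30), and PE + THZ1 against baseline with edgeR (-0.19). With only the groups compared, PE against baseline missed the threshold for *Ppara* (-0.26) and *Cpt1b* (-0.12), and *Ppara* passed for PE + THZ1 against THZ1 alone (-0.18). The replicate block brought 3 values of *Ppargc1a* past the threshold, 0.17 for THZ1 alone, -0.18 for PE + THZ1 against baseline and 0.26 for the interaction. Deviations of same-numbered libraries had a mean r across genes of 0.0301 over 18 pairs, against -0.0152 over 36 pairs with other numbers. Deviations were taken from the group mean, so the second value largely follows from the first. These means cannot tell whether equal numbers mark a shared preparation. With each library left out in turn, log2 changes ran from -0.13 to -0.10 for *Cpt1b* and from -0.35 to -0.21 for *Ppara* with PE, from 0.16 to 0.28 for *Ppara* in PE + THZ1 against PE, from 0.064 to 0.23 for *Ppargc1a* with THZ1 alone and from -0.29 to -0.12 for it in PE + THZ1 against baseline. *Ppara* ran from 0.031 to 0.17 with THZ1 alone and from -0.15 to -0.0059 in PE + THZ1 against baseline. Interactions ran from 0.20 to 0.37 for *Ppargc1a*, from 0.031 to 0.17 for *Ppara* and from -0.027 to 0.059 for *Pdk4*, whose sign turned without baseline replicate 1 (-0.015) and PE replicate 1 (-0.027). Shares reversed ran from 2.80 to 3.58 for *Pdk4* and from 4.66 to 5.87 for *Cpt1b*. The numbers of genes called in either direction stayed within 1.5 times of the main ones under every alternative. Equal totals moved directional ones further, from 4430 higher and 4509 lower to 7837 and 2292 for PE + THZ1 against PE, from 3713 and 3760 to 5952 and 2260 for THZ1 alone, from 3856 and 3945 to 6371 and 2204 for PE + THZ1 against baseline, from 4329 higher to 2823 for PE, and from 2580 negative interactions to 1061. The cause of these shifts was not tested. Counting error was largest for *Ppara*. Pathway lists were not run.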
